A study of Drosophila melanogaster with 34 samples.

Results

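H3K9me3, the trimethylated form of histone H3 lysine 9, was compared at transposons between ovarian somatic cells (OSC) depleted of Piwi and control OSC. The members are all 129 transposon consensus sequences of 129 in the deposited tables, and the comparison uses 4 of the 34 samples of the series. OSC are a Drosophila cell line derived from the follicle cells of the ovary and are described as lacking germ cells. Every sample came from this line, grown at 26 degrees and transfected with siRNA. Piwi knockdown (Piwi-KD) used siRNA against Piwi, and the control used siRNA against EGFP, a jellyfish protein with no fly counterpart. On each side 1 chromatin immunoprecipitation (ChIP) library made with an anti-H3K9me3 antibody was set against 1 input library, which is sonicated chromatin sequenced without antibody. The labels number all 4 as sample 1. A further pair of libraries from cells with siRNA against the linker histone H1 (H1-KD) serves below as a further condition. Piwi RNA itself was not analysed here, and the Piwi-KD label was thus not checked against it. Each consensus represents copies at many places in the genome, so no chromosome position is given.

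Piwi is the nuclear PIWI protein of Drosophila. It carries piRNAs, small RNAs cut from transposon-derived transcripts, and is known to silence matching transposons at the level of transcription. H3K9me3 is the histone mark that heterochromatin protein HP1a binds, and in these cells it is known to be laid down on transposon copies that Piwi targets. The elements controlled this way in follicle cells are mostly long terminal repeat (LTR) retrotransposons, which copy themselves through RNA, and include endogenous retroviruses such as gypsy.

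Levels are given as RPKM, read counts corrected for the length of the consensus and the depth of the library, and H3K9me3 "over input" is the ChIP RPKM divided by the input RPKM of the same condition. A log2 change is Piwi-KD minus control of that ratio, with a small pseudocount. The H3K9me3 libraries held 2420008 reads in the control and 2173189 in Piwi-KD, and the inputs held 3870079 and 3842228. With 1 library a condition there is no spread between replicates and no test. Intervals in square brackets are at 95%, cover counting error only and are on the ratio without pseudocount, so that they need not hold the printed change. A change is called here when it reaches 1.5-fold. In bulk samples, fewer cells with the mark and less mark per cell cannot be told apart.

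Among the 96 transposons that passed a filter on low values, 13 were at least 1.5-fold lower in Piwi-KD (13.5%) and 13 were at least 1.5-fold higher (13.5%). The lower ones were led by the LTR elements DM297, MDG1 and GYPSY. They included 5 of the 7 kept members of the mdg1 group, and 5 of the 39 of the gypsy group, a share close to that over all transposons, with a gypsy group median of 0.22. The higher ones were mainly non-LTR elements, among them R1 and R2, which insert into ribosomal RNA genes. Falls were also larger than rises: 8 transposons were at least 2-fold lower and 1 was at least 2-fold higher. The median transposon stood at 0.30, and at any size 72 of the 96 were above control (75%) and 24 below (25%). Counted relative to that median, 15 were at least 1.5-fold lower (15.6%) and 2 higher (2.08%). With libraries scaled to the sum of their transposon reads, 12 were lower and 32 higher, with the median at 0.45.

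Transposons took 30.2% of the H3K9me3 reads in the control and 27.5% in Piwi-KD, against 9.39% and 9.63% of the input reads. The elements with the largest differences were GYPSY and Gypsy1. GYPSY alone held 4.66% of all H3K9me3 reads in the control and 1.58% in Piwi-KD. Gypsy1, a separate mixed-case entry of the tables, held 4.77% and 2.55%. The OSC target list, a set of LTR elements often described as silenced by Piwi in OSC, went from 9.31% to 5.10% of H3K9me3 reads while its input share was 1.97% and 2.11%. The summed share of the transposons outside that list went from 20.9% to 22.4%, although 14 of its 82 kept members, Gypsy1 among them, were below control over input.

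The largest fall was at DM297, a gypsy-group LTR element. Its H3K9me3 level was 1154 RPKM in the control and 363 in Piwi-KD, over inputs of 244 and 312. The ratio thus went from 4.72 to 1.16, a log2 change of -1.98 [-2.09 to -1.96], which left 24.6% of the control ratio. In Piwi-KD the antibody therefore recovered DM297 DNA hardly above its share of the input. The input of DM297 was itself higher in Piwi-KD by 0.35 on the log2 scale, the largest input rise among the kept transposons, and without any input the change was -1.63.

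GYPSY, the endogenous retrovirus whose control by the flamenco piRNA locus in follicle cells is the classical case of this pathway, had the highest H3K9me3 over input of all kept transposons in the control. It stood at 6674 RPKM against an input of 989 in the control, and at 2259 against 1020 in Piwi-KD. Its ratio fell from 6.75 to 2.21 (-1.60 [-1.64 to -1.58]). GYPSY thus kept a level well above its input. GYPSY5, a less abundant relative, had 73.5 RPKM over 18.1 in the control and 39.9 over 18.6 in Piwi-KD. This took it from 4.06 to 2.14 (-0.74 [-1.15 to -0.69]). With a pseudocount of 1.0 of the median level in place of 0.1, the call at GYPSY5 was lost (-0.27). Gypsy2, a mixed-case entry apart from GYPSY2, was named after its values were seen as the member just past the 1.5-fold line, at 4.04 and 2.56 (-0.60). Its input was higher in Piwi-KD by 0.21 on the log2 scale, and without input the change was -0.39, which ends the call.

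The mdg1 group, LTR elements related to mdg1, held 5 of the 13 falls among its 7 kept members. In it 1 member was higher, and its median was -1.07 against 0.30 over all kept transposons. Membership was assigned by name: MDG1, DM412, DM412B, BLOOD and the Stalker elements STALKER2, STALKER3 and STALKER4. TABOR (-0.24) was not placed in it, so the share of falls depends on this choice. MDG1 was at 718 RPKM over 171 in the control and at 250 over 190 in Piwi-KD, which is 4.20 and 1.31 (-1.63 [-1.75 to -1.60]). DM412 was at 722 over 213 and at 332 over 227, which is 3.39 and 1.46 (-1.18 [-1.28 to -1.14]). Its short relative DM412B moved alike, from 3.02 to 1.20 (-1.07 [-2.04 to -0.63]), but rested on 132 and 42 H3K9me3 reads. BLOOD was at 721 over 254 and at 375 over 261, which is 2.84 and 1.44 (-0.95 [-1.04 to -0.91]).

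The Stalker elements of the same group did not move together. STALKER2 was at 132 RPKM over 43.4 in the control and at 55.5 over 44.3 in Piwi-KD, a ratio of 3.03 and 1.25 (-1.10 [-1.43 to -1.12]). STALKER4 was at 896 over 287 and at 1052 over 308, which is 3.13 and 3.42 (0.13 [0.07 to 0.18]). STALKER3 was higher, from 2.37 to 4.75 (0.90 [0.31 to 1.70]), on 83 and 121 H3K9me3 reads. The counting of reads shared between related families was not stated, so differences within a family are uncertain. With a pseudocount of 1.0 of the median level the calls at STALKER2 and DM412B were lost (-0.51 and -0.39).

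Outside the LTR elements of the OSC target list, 6 transposons were at least 1.5-fold lower. COPIA, an LTR element of the copia group, was at 1890 RPKM over 907 in the control and at 823 over 959 in Piwi-KD. Its ratio fell from 2.08 to 0.86 (-1.27 [-1.33 to -1.23]), while the other 4 members of its group were above control and the group median was 0.38. Gypsy1 was at 6689 over 1938 and at 3571 over 1905, which is 3.45 and 1.87 (-0.88 [-0.90 to -0.86]). The non-LTR element I, known for hybrid dysgenesis in the female germline, was at 722 over 312 and at 337 over 319, which is 2.32 and 1.06 (-1.11 [-1.21 to -1.06]). I was the 1 lower member of the 9 kept germline-dominant transposons, whose median was 0.22. DOC6, a jockey-clade non-LTR element, was at 624 over 341 and at 339 over 365, which is 1.83 and 0.93 (-0.95 [-1.06 to -0.90]). Its relatives DOC (0.25), DOC2 (0.47) and DOC3 (0.64) were all above control. The call at DOC6 was lost (-0.58) when the mean of the 3 control inputs replaced the sample 1 input, and its 3 control inputs had a standard deviation of 0.32 on the log2 scale.

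**Figure D1:**
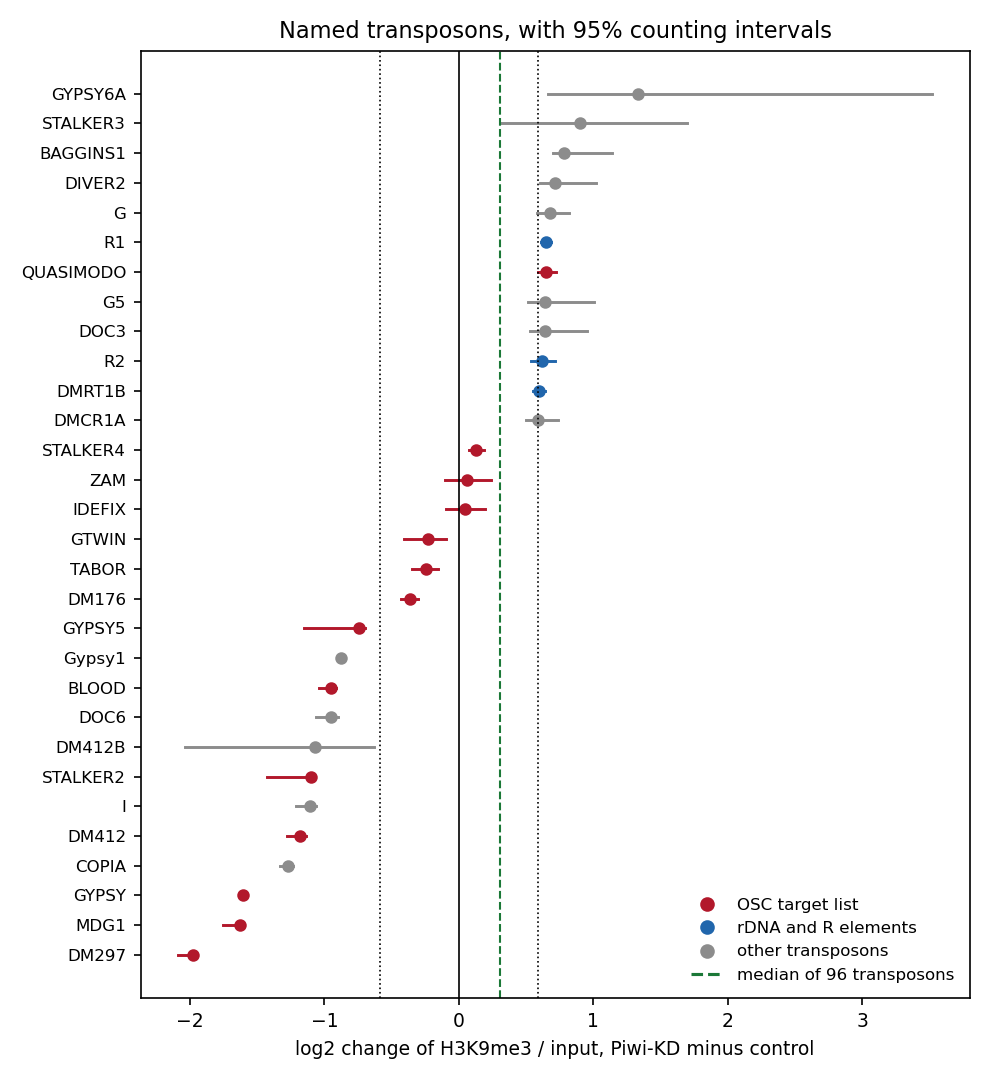
Log2 change of H3K9me3 over input, Piwi-KD minus control, for the 12 largest rises, the 12 largest falls and the kept OSC target list; bars are 95% counting intervals on the ratio without pseudocount, dotted lines mark 1.5-fold and the dashed line the median of 96 transposons. DM297, MDG1 and GYPSY lie lowest, from -1.98 to -1.60, and QUASIMODO is the only OSC target past 1.5-fold on the higher side.

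Of the 15 measured members of the OSC target list, TIRANT was listed at 0 in all 4 libraries and left out by the filter. Of the 14 kept, 7 were at least 1.5-fold lower (GYPSY, DM297, MDG1, DM412, STALKER2, BLOOD and GYPSY5), 1 was higher and 6 were within 1.5-fold. The list's median ratio went from 3.81 to 2.27, while that of all kept transposons went from 2.72 to 3.06. Its median log2 change was -0.55, or -0.85 relative to the median transposon. Changes within the list ran from -1.98 to 0.64, and 13 of the 14 members lay below the median transposon.

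Of the 6 list members within 1.5-fold, 3 were slightly lower. DM176, a gypsy-group relative of DM297, was at 820 RPKM over 214 in the control and at 697 over 234 in Piwi-KD, which is 3.83 and 2.97 (-0.36 [-0.43 to -0.31]); relative to the median transposon this was -0.66 and past 1.5-fold. TABOR was at 4.22 and 3.54 (-0.24 [-0.35 to -0.16]), and GTWIN at 4.58 and 3.85 (-0.23 [-0.41 to -0.09]). The others were level with control or slightly above it as deposited. IDEFIX and ZAM, both env-carrying retroelements of the gypsy group, were at 2.24 and 2.32 (0.05 [-0.09 to 0.19]) and at 3.39 and 3.56 (0.06 [-0.10 to 0.24]). Relative to the median transposon these 2 and STALKER4, given above, were lower than control (-0.26 for IDEFIX, -0.25 for ZAM and -0.18 for STALKER4).

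QUASIMODO, a gypsy-group LTR element, was the list member past 1.5-fold higher. It was at 671 RPKM over 177 in the control and at 1203 over 202 in Piwi-KD. Its ratio rose from 3.79 to 5.95 (0.64 [0.59 to 0.72]), and without any input the change was 0.83. Relative to the median transposon it stood at 0.34, and with a pseudocount of 1.0 of the median level at 0.58, both within 1.5-fold. QUASIMODO2, a separate consensus, was at 2.72 and 3.48 (0.33).

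With the pseudocount, rises other than that of GYPSY6A were under 2-fold. R1 was at 3411 RPKM over 747 in the control and at 5398 over 754 in Piwi-KD, a ratio of 4.56 and 7.16 (0.65 [0.61 to 0.69]). R1, a non-LTR element that inserts at a fixed site in the ribosomal RNA genes, had the highest H3K9me3 over input of all kept transposons in Piwi-KD, the place GYPSY held in the control. R2, which inserts into the same genes, was at 4.38 and 6.76 (0.62 [0.53 to 0.72]), and the R1-type element DMRT1B at 4.42 and 6.68 (0.59 [0.55 to 0.64]). With DMRT1A at 0.46, all 4 kept rDNA and R elements were above control, and 3 of them past 1.5-fold; relative to the median transposon none of the 4 was. Their share of H3K9me3 reads went from 3.54% to 5.39% while their input share was 0.80% on both sides.

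The remaining rises were spread over several groups. Non-LTR elements grouped, by name alone, as jockey and I clades had 5 of 19 kept members higher and 2 lower, with a median of 0.46. G was at 331 RPKM over 91.3 and at 538 over 91.4, which is 3.63 and 5.88 (0.68 [0.58 to 0.82]). G5 went from 2.73 to 4.63 (0.64), BAGGINS1 from 2.22 to 4.20 (0.78), DOC3 from 1.98 to 3.30 (0.64) and DMCR1A from 2.12 to 3.24 (0.59). The BEL/Pao group of LTR elements had 2 of 7 higher, namely DIVER2 (2.57 and 4.50, 0.72) and MAX (3.58 and 5.44, 0.59), the latter named after its values were seen, and a median of 0.43. GYPSY6A had the largest rise (1.33 [0.66 to 3.52]), but from 11 and 19 H3K9me3 reads, and its input was lower in Piwi-KD by 0.83 on the log2 scale. Only GYPSY6A and STALKER3 stayed at least 1.5-fold higher relative to the median transposon. Without input GYPSY6A was at 0.50 and lost the call, as did DIVER2, DMCR1A, DMRT1B, DOC3 and G5. With the mean of the 3 control inputs, the call was lost at BAGGINS1, DIVER2, DMCR1A, DMRT1B, DOC3, G, G5, R1 and R2. With the pseudocount, none of the 14 kept DNA transposons was past 1.5-fold, and their median was 0.16. HOBO, at 0.42 and 0.21 over input on 64 and 30 H3K9me3 reads, was lower past 1.5-fold relative to the median transposon (-0.68). Without the pseudocount, HOBO was past 1.5-fold lower also as deposited, at 49.4% of its control ratio [-1.69 to -0.34]. TRANSIB2, TC1 and Transib1 were then past 1.5-fold higher. TRANSIB2 and TC1 were at 179% and 181% of their control ratios, and Transib1 had 71 and 112 H3K9me3 reads. TART, the 1 telomeric element kept of 4, was below its input on both sides (0.41 and 0.33).

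**Figure D2:**
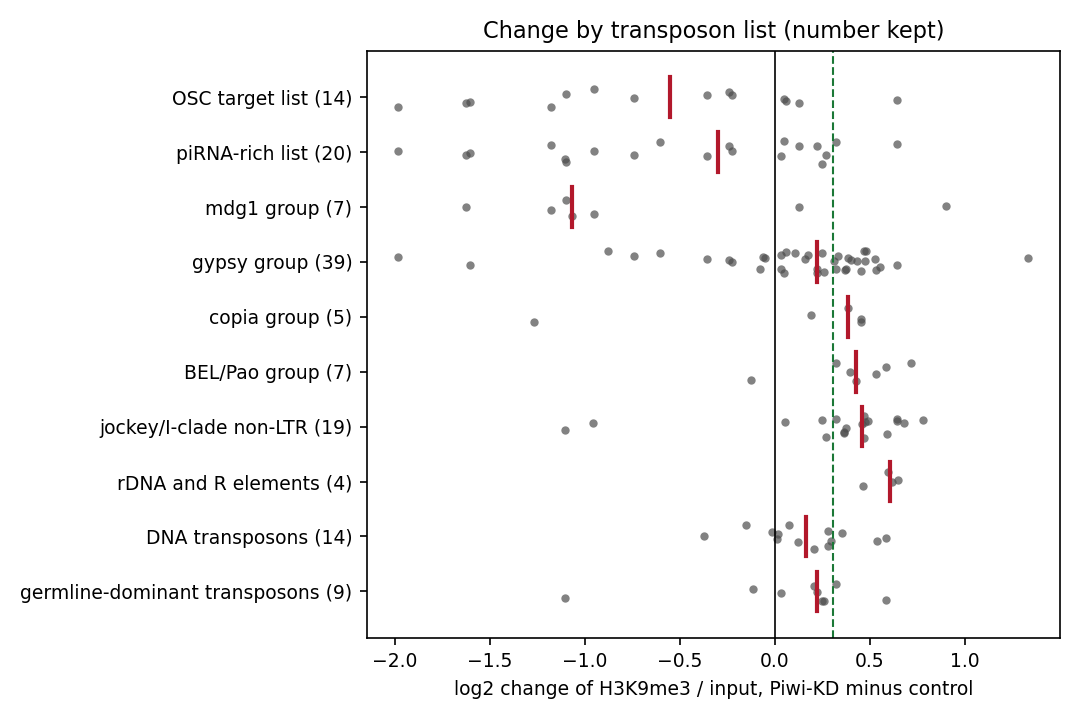
Log2 change of H3K9me3 over input, Piwi-KD minus control, for the kept members of each transposon list (points, 1 per transposon, with vertical jitter only) and the list median (red bars); the dashed line is the median of all 96. The mdg1 group (-1.07), the OSC target list (-0.55) and the piRNA-rich list (-0.30) have medians below 0, and the rDNA and R elements (0.60) the highest; lists overlap in their members.

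Levels over input were also counted on each side. In the control 72 of the 96 kept transposons were at least 2 over input. Of these, 8 were under 1.5 in Piwi-KD, namely COPIA, BLOOD, I, DM412B, MDG1, STALKER2, DM297 and DM412, at 0.86 to 1.46. At the other end, 13 transposons stood at least 4 over input in the control and 27 in Piwi-KD. High control ratios were found among both falls and rises. Among the 24 transposons with the highest control ratio (3.45 and above), 6 were at least 1.5-fold lower and 6 at least 1.5-fold higher. Among the 24 with the lowest, 1 was lower and 2 higher. Over all 96, 13 were lower and 13 higher (13.5% each). The control ratio that sorted these transposons also enters the change, so the counts are a description only.

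Piwi-bound small RNA in the control, in RPM, which corrects for library depth but not for length, gave another order of the same elements. Of the 20 transposons with most of it, from 7111 to 44194 RPM, 9 had lower H3K9me3 in Piwi-KD and 1, QUASIMODO, higher, with a median of -0.30. These 9 are 69.2% of the 13 falls and 45% of the piRNA-rich list, which is 20.8% of the kept transposons. Over all 96 kept transposons, 13 were lower and 13 higher (13.5% each). Among the 34 kept transposons ranked 21 to 60, 4 were lower and 5 higher, with a median of 0.37. Both shares are close to those over all transposons. Among the 42 kept transposons ranked below the first 60, with at most 59.3 RPM, none of the 13 falls was found, 7 were higher and the median was 0.37. The share of rises there was also close to that over all transposons. GTWIN had the most small RNA of all, at 44194 RPM, with a change of -0.23. COPIA had 191 RPM, with a change of -1.27.

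Poly(A)+ RNA, from 1 library a condition, was at least 2-fold higher in Piwi-KD for 23 of the 96 transposons (24%). Of the 13 transposons with lower H3K9me3, 10 were among them, which is 76.9% of the falls and 43.5% of the RNA rises. DM297 RNA went from 8.18 to 728 RPKM, DM412 RNA from 8.67 to 749, and GYPSY RNA from 36.2 to 1662. The 3 others, COPIA, BLOOD and Gypsy1, already had high RNA in the control. COPIA RNA was 23623 RPKM in the control and 38022 in Piwi-KD, BLOOD RNA 572 and 875, and Gypsy1 RNA 2827 and 2465.

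The converse also occurred, with RNA far higher and H3K9me3 near control or above it. Of the 11 transposons with at least 8-fold more RNA, 6 had lower H3K9me3, 1 had higher, and the median H3K9me3 change was -0.74. GTWIN RNA went from 0.782 to 76.9 RPKM with H3K9me3 at -0.23. TABOR RNA went from 17.8 to 523 with H3K9me3 at -0.24. For QUASIMODO, RNA went from 2.78 to 233 RPKM while H3K9me3 over input was higher by 0.64. STALKER4 RNA went from 5.78 to 68.5 with H3K9me3 at 0.13. In all, 12 transposons had RNA at least 2-fold higher with H3K9me3 within 1.5-fold. Where RNA was within 2-fold (71 transposons), 3 were lower and 12 higher in H3K9me3, with a median of 0.37.

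**Figure D3:**
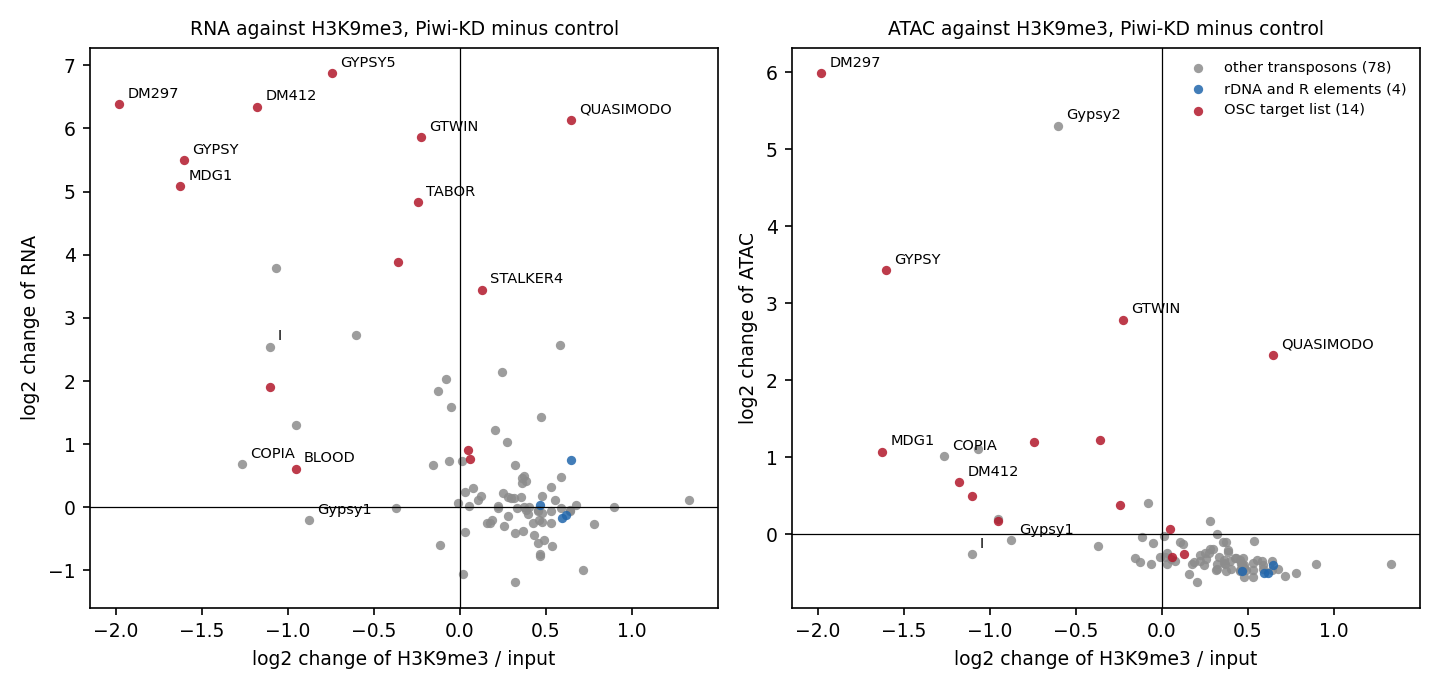
Log2 change of RNA (left) and of ATAC signal (right) on the y axes against the log2 change of H3K9me3 over input on the x axes, Piwi-KD minus control, each point 1 of 96 transposons and each axis from 1 library or column a condition. Points at the upper left, such as DM297 and GYPSY, had more RNA and accessibility with less H3K9me3, and QUASIMODO lies at the upper right of both panels.

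Accessibility by ATAC-seq, a transposase assay of open chromatin given as 1 column a condition, was at least 1.5-fold higher for 11 of the 96 transposons (11.5%). Of these, 8 had lower H3K9me3, which is 72.7% of the 11 and 61.5% of the 13 falls. DM297 went from 185 to 12132 RPKM in ATAC and GYPSY from 630 to 6848. Gypsy2 went from 67.0 to 2881, with a change in H3K9me3 (-0.60) much smaller than that of DM297. The 3 others with higher ATAC signal were GTWIN, DM176 and QUASIMODO. I was lower in H3K9me3 with ATAC at 202 and 168 RPKM, and DM412, among the 11, had an ATAC change of 0.68 beside an RNA change of 6.35. ATAC values were not divided by input, nor centred on their median change, which was -0.32 over the 96 transposons. The ATAC change of I, at -0.26, was near that median.

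HP1a ChIP, also 1 library a condition and divided by the same inputs, was at least 1.5-fold lower at 6 of the 96 transposons (6.25%), namely DM297, GYPSY, MDG1, STALKER2, Gypsy2 and BLOOD. GYPSY went from 2.87 to 1.29 over input in HP1a (-1.15) and DM297 from 1.75 to 0.87 (-0.98). Both HP1a changes were smaller on the log2 scale than those of H3K9me3. COPIA, which kept 41.2% of its control H3K9me3 ratio, had an HP1a change of -0.34. QUASIMODO, with more H3K9me3, went from 1.94 to 1.47 in HP1a (-0.39). Linker histone H1 ChIP was at least 1.5-fold lower at 3 transposons (3.12%), namely DM297 (-0.85), GYPSY (-0.82) and MDG1 (-0.76). Rises past 1.5-fold were found at 2 transposons for HP1a (2.08%), POGON1 and GYPSY6A, and at 3 for H1 (3.12%), which were these and PROTOP_B. POGON1 had 36 and 24 input reads and GYPSY6A 29 and 13. These ratios share their inputs with those of H3K9me3, and some of the calls rest on input. Without input, the H1 fall at DM297 and the HP1a falls at Gypsy2 and BLOOD (-0.56) were within 1.5-fold. Among the rises, only H1 at POGON1 stayed past 1.5-fold without input, on 8 and 16 reads, and PROTOP_B was at 0.34.

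The H1-KD libraries give a second knockdown measured with the same antibody. It shares the control libraries with the comparison above, so both changes are given side by side, and Piwi-KD was also set directly against H1-KD, with no control library involved. Against control, H1-KD had 6 transposons at least 1.5-fold lower (6.25%) and 2 higher (2.08%). Piwi-KD against H1-KD had 10 lower (10.4%) and 13 higher (13.5%). GYPSY was at 6.75 over input in the control, 6.82 in H1-KD and 2.21 in Piwi-KD. DM297 was at 4.72, 3.89 and 1.16, so that Piwi-KD was lower than H1-KD by 1.70 on the log2 scale for DM297 and by 1.62 for GYPSY.

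MDG1, STALKER2 and BLOOD of the mdg1 group were past 1.5-fold lower in either knockdown, as were Gypsy1 and DOC6 outside it. Against control, H1-KD was at -0.62 for Gypsy1 and -0.64 for DOC6. The remaining H1-KD fall was BARI, which was within 1.5-fold in Piwi-KD. MDG1 was at 4.20, 2.53 and 1.31 in control, H1-KD and Piwi-KD. STALKER2 was at 3.03, 1.42 and 1.25, and BLOOD at 2.84, 1.20 and 1.44, so for these 2 elements Piwi-KD and H1-KD differed by less than 1.5-fold (-0.15 and 0.25). GTWIN was at 4.58, 6.46 and 3.85, within 1.5-fold of control in either knockdown but lower in Piwi-KD than in H1-KD (-0.68). QUASIMODO was at 3.79, 3.59 and 5.95, and R1 at 4.56, 6.43 and 7.16. The rise of QUASIMODO was thus present against both other conditions (0.64 and 0.72), whereas R1 in Piwi-KD was within 1.5-fold of H1-KD (0.15).

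**Figure D4:**
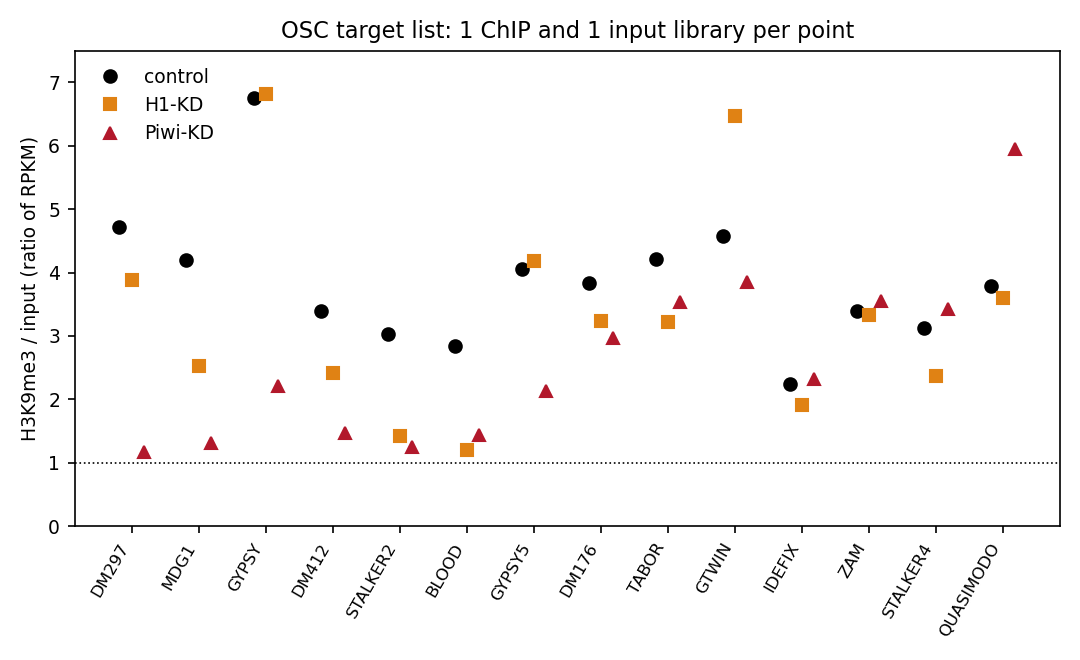
H3K9me3 over input (ratio of RPKM) at the 14 kept members of the OSC target list in the control (circles), H1-KD (squares) and Piwi-KD (triangles), ordered by the change in Piwi-KD; each point is 1 ChIP over 1 input library and the dotted line marks input level. GYPSY is at 6.75, 6.82 and 2.21, BLOOD and STALKER2 are low in both knockdowns, and QUASIMODO is highest in Piwi-KD.

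Input alone moved little at most transposons. The median absolute log2 change of input between Piwi-KD and control was 0.06, and 1 transposon, GYPSY6A, was past 1.5-fold. Some calls still rested on input: without it, 12 of the 13 falls and 6 of the 13 rises stayed past 1.5-fold. Over the 3 control inputs the standard deviation on the log2 scale had a median of 0.13 and ranged from 0.02 to 0.53 between transposons. That spread concerns input only; no second H3K9me3 library of either condition was analysed here. The highest input spreads among the named rises were at BAGGINS1 (0.42), DOC3 (0.39), GYPSY6A (0.39) and DIVER2 (0.38), whereas GYPSY (0.08), MDG1 (0.11) and COPIA (0.11) were low.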

How the data were processed

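For each library the authors deposited 1 value per transposon consensus. Deposited ChIP, input, RNA and ATAC values were read as RPKM, and deposited small RNA values as RPM, from the values themselves, since no source used here names the unit. With whole-number lengths (128 of 129 transposons) and a read total for each column, 3606 of 3606 nonzero values became whole reads (tolerance 0.05); the procedure was tested on simulated data. Per the submitters' processing notes, Bowtie 1.0.1 was used for ChIP, input and small RNA, MACS2 for ATAC, and Bowtie2 2.0.6 with TopHat2 2.0.7 and Cufflinks 2.1.1 for RNA; reads of all assays were handled with cutadapt, the build was dm3, and roles and order are not stated. The notes do not say whether ATAC columns pool the 2 replicates. Per the labels' protocols, chromatin was sonicated to about 300 bases and 3 µg of antibody was used.

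The log2 change was log2((ChIP + p)/(input + p)) in Piwi-KD minus control, with p at 0.1 of the median nonzero value (13.2 RPKM for H3K9me3, 4.53 for input). Such changes can understate those of low transposons. They can also add a change: POGON1 was at 99.5% of its control ratio but at 0.28 with the pseudocount. The 25% of transposons with the lowest mean over the 4 libraries, 33 of 129, were left out. These had a median of 8.5 H3K9me3 reads in the control, against 2664 for those kept. Their mean level was under the H3K9me3 pseudocount, so their changes with it (-0.31 to 0.56) are held down by construction. Without it, TART_B1 went from 1.73 to 0.58 over input on 80 and 24 H3K9me3 reads. Other left-out elements rose without it, on few H3K9me3 reads. BS3 went from 1.03 to 5.81 on 9 and 23 reads, and DMRT1C from 0.66 to 4.02 on 7 and 25. Intervals are a normal approximation on the log scale from recovered reads. Reads amplified by PCR without molecular identifiers may be copies of 1 molecule, so the intervals cover counting error only. Members, lists and the rule for named transposons (kept OSC targets, 12 largest rises and 12 largest falls) were chosen with earlier results of these data known; others were named after their values were seen. The piRNA-rich list holds the 20 transposons with most small RNA in the control by RPM, so short elements can be left off it. STALKER3, of 372 bases and off the list, had 2040 RPM per kilobase, against 1283 for BLOOD, which is on it. Python 3.11.15, numpy 2.4.6, scipy 1.17.1, pandas 2.3.3 and matplotlib 3.10.9 were used. Alternatives changed the pseudocount, filter, input, scaling and fold.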

Additional observations from a re-analysis of the deposited data

How the results depend on the processing

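The count of falls was steadier than the count of rises. Against 13 at least 1.5-fold lower, alternative settings gave 9 to 15, apart from a 2-fold threshold, which left 8. Against 13 higher, the count was 1 with a pseudocount of 1.0 of the median and 7 with the lowest 50% left out. It was 7 with no input, of which 6 were among the 13. Using 1 common input gives the same run, since that input cancels between the 2 sides. With the mean of the 3 control inputs the count was 4, of which 3 were among the 13. It was 2 centred on the median transposon, 32 scaled to the sum of transposon reads, and 1 at 2-fold. Without a pseudocount 19 were higher and 14 lower. Requiring at least 100 reads in each of the 4 libraries, chosen after seeing the data, gave 11 and 12. The OSC target list's median of -0.55 was -0.29 with the pseudocount of 1.0, -0.36 with the lowest 50% left out, -0.85 centred and -0.40 scaled to transposon reads. Centring sets the median of all transposons, 0.30, to 0. No named transposon past 1.5-fold changed sign under the alternatives that kept the control side, and DM176 was lower past 1.5-fold when centred. Set against H1-KD in place of control, BLOOD was at 0.25 rather than -0.95, a change of sign. The cause was not tested. No paired analysis was possible because each condition had 1 ChIP and 1 input library. Depth limits values of low elements, such as GYPSY6A with 11 and 19 reads.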
